A study of Mus musculus with 6 samples.

Results

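Long intergenic noncoding RNAs (lincRNAs) are transcripts without a long reading frame, made from genes of their own that lie between protein-coding genes. The abundant lincRNAs of the embryonic medial ganglionic eminence (MGE) were compared between Prdm16 mutant and control pools. Members were the genes of type lincRNA in GENCODE M21, outside chromosomes X and Y, with a total of at least 2500 raw counts over the 6 libraries. The count table held 49315 genes, of which 4151 were lincRNA genes, and 67 of these reached that total. Leaving out Xist and Ftx on chromosome X and the imprinted H19, Meg3 and Mirg gave 62 members. The members were thus chosen by their summed count over both groups, and the difference between groups was not itself a criterion. A gene near the minimum can still pass through the group where it is higher. The called member nearest the minimum, 2610035D17Rik, had 539, 413 and 701 counts in mutant pools and 484, 259 and 298 in controls. Just inside the minimum were AU020206, Gm37584 and Gm26819 with totals of 2596, 2544 and 2533 counts. Just outside it were 2010320M18Rik, 2700038G22Rik and Gm12063 with 2476, 2369 and 2332 counts.

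RNA-seq counts per gene came from 2 groups of 3 libraries at embryonic day 14 (E14). The KO group was Nkx2.1-Cre; Prdm16fl/fl; Ai14, homozygous for a floxed allele of Prdm16, which encodes a zinc finger protein that binds chromatin in radial glia. The WT group was Nkx2.1-Cre; Prdm16+/+; Ai14, so the Cre driver and the Ai14 reporter were shared by both groups. Each library was made from total RNA of 1 pool of 3 embryos (6 eminences), and the replicate is the pool. Nkx2.1-Cre is active in MGE progenitors and their progeny, while blood vessels and microglia of the same dissection keep both Prdm16 alleles. The comparison asks which RNAs differ in the MGE when Prdm16 is lost from this lineage.

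Many lincRNAs work close to where they are made. Some stay in the nucleus and bind splicing or chromatin factors, some are the precursors of microRNAs or small nucleolar RNAs, and some act through the promoter they share with a neighbouring gene. In the developing brain several are made beside genes of neural transcription factors. MicroRNAs are short RNAs that pair with messenger RNAs through bases 2 to 8 (the seed) and lower their output. The microRNAs miR-9 and miR-124 are known from neural progenitors and neurons, in which they favour neuronal differentiation.

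Sequences that belong to the results are given first, from RefSeq (GRCm38.p6) and GENCODE M21. Of the 62 members, 3 contain 1 copy each of the same microRNA. They are shown because all 3 hosts rose in KO. The hairpins, with mature miR-9-5p in capitals, lie in Gm3764 (chr3:88215598-88215686, plus strand), in C130071C03Rik (chr13:83738814-83738885, plus strand) and in Mir9-3hg (chr7:79505264-79505353, plus strand).
Mir9-1: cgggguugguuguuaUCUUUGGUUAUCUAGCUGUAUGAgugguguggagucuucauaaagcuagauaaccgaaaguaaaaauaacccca
Mir9-2: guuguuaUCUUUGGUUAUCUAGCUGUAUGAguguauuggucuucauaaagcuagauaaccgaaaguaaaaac
Mir9-3: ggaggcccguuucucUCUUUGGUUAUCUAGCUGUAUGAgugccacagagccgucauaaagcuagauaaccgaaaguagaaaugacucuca
The mature products, with the seed in capitals, are the same from all 3 hairpins.
mmu-miR-9-5p: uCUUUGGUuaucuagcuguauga
mmu-miR-9-3p: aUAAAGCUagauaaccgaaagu

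Miat, the most counted member, is known for repeats of the letters TACTAAC, written with U for T in the RNA, which match the branch point motif that splicing factor SF1 binds. The longest annotated Miat transcript (9163 bases) held 6 copies on its own strand between positions 4941 and 5623. One other member of 61 held the motif, with 1 copy. Of 5854 lincRNA genes searched by their longest transcript, 3.72% held it, and no other had more than 2 copies. The stretch from position 4873 to 5072 holds 3 of the copies, in capitals.
Miat-205: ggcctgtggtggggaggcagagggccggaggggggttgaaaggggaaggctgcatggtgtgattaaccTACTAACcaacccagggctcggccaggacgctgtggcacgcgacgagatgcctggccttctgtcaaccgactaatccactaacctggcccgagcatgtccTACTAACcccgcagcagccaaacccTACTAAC

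The member 1700020I14Rik is the lincRNA known as Cyrano. In mouse it is known for a site of extended pairing to miR-7, through which it lowers that microRNA. Its longest transcript (8300 bases) held 2 matches to the miR-7a-5p seed (GTCTTCC on its own strand), a match that 11.4% of lincRNA transcripts and 14 members had. At the site from position 2935 to 2959, 21 of the 23 bases of miR-7a-5p pair, which are shown in capitals in the transcript.
1700020I14Rik-202: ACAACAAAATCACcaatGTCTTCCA
mmu-miR-7a-5p: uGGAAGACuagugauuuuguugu

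Levels are CPM, read counts relative to library size with that size scaled by the trimmed mean of M values (TMM). Library totals ran from 33188277 to 55552298 counts, and a single member had between 259 and 111099 counts in a library. Prdm16, the targeted gene, had 2376, 1870 and 2527 counts in KO 1 to 3, against 2572, 1574 and 1743 in WT 1 to 3 (log2 fold change 0.022, SE 0.09, edgeR adjusted p = 0.884). The counts cover the whole gene, so they do not check the deletion of single exons, and each direction rests on the KO label. On the first principal component (55.9% of the variance) the WT libraries were at 28.3 to 31. KO 1 was at -15.9, nearer to them than KO 2 (-35.4) and KO 3 (-37.2). KO 1 also stood apart from KO 2 and KO 3 on the second principal component (16.1% of the variance). Xist was at 1.92 CPM in KO 1, 721 CPM in KO 2, 1424 CPM in KO 3 and 1019.9 to 1168 CPM in WT. Each mean ± SD below is over the 3 libraries of a group. Of the MGE markers Nkx2-1, Lhx6, Lhx8, Sox6 and Dlx2, each was well detected, and their summed level was 1942 to 2201 CPM in KO and 2055 to 2216 CPM in WT. Within that sum Lhx6 was lower, with 503 ± 26.6 CPM in KO and 652 ± 31.2 CPM in WT (edgeR adjusted p = 0.00627), and Lhx8 was higher, with 234 ± 33.7 CPM in KO and 166 ± 7.09 CPM in WT (edgeR adjusted p = 0.00952), while the other 3 were not called.

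All 62 members passed the filter on low counts, and 16 of them differed between the groups at an edgeR quasi-likelihood adjusted p under 0.05. These were 12 members higher and 4 lower in KO. In the tissue as a whole, among 18079 genes tested, 9.72% were higher and 10.5% were lower, together 20.2%. Autosomal genes with a total of at least 2500 counts, as the members have, numbered 9795, of which 12.8% were higher and 11.4% lower, together 24.2%. Of the members, 25.8% were called, 19.4% higher and 6.45% lower, so the total share lay near the background. The median log2 fold change of the members was -0.0041, against 0.014 for the autosomal genes at that depth and -0.0024 for all tested genes. In 23 members (37.1%) the ranges of KO and WT libraries did not overlap, against 39.9% of all tested genes and 45.8% of the autosomal genes at that depth. Of 523 tested lincRNA genes under the minimum total, 14.9% were called. The plot of all 62 log2 fold changes shows them in order: the called members lie on both sides of 0, each changed less than 1.5-fold, and the most extreme values at either end belong to members that were not called. Reads from whole tissue cannot tell fewer cells of a type from less RNA per cell, and this holds for each value below.

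**Figure D1:**
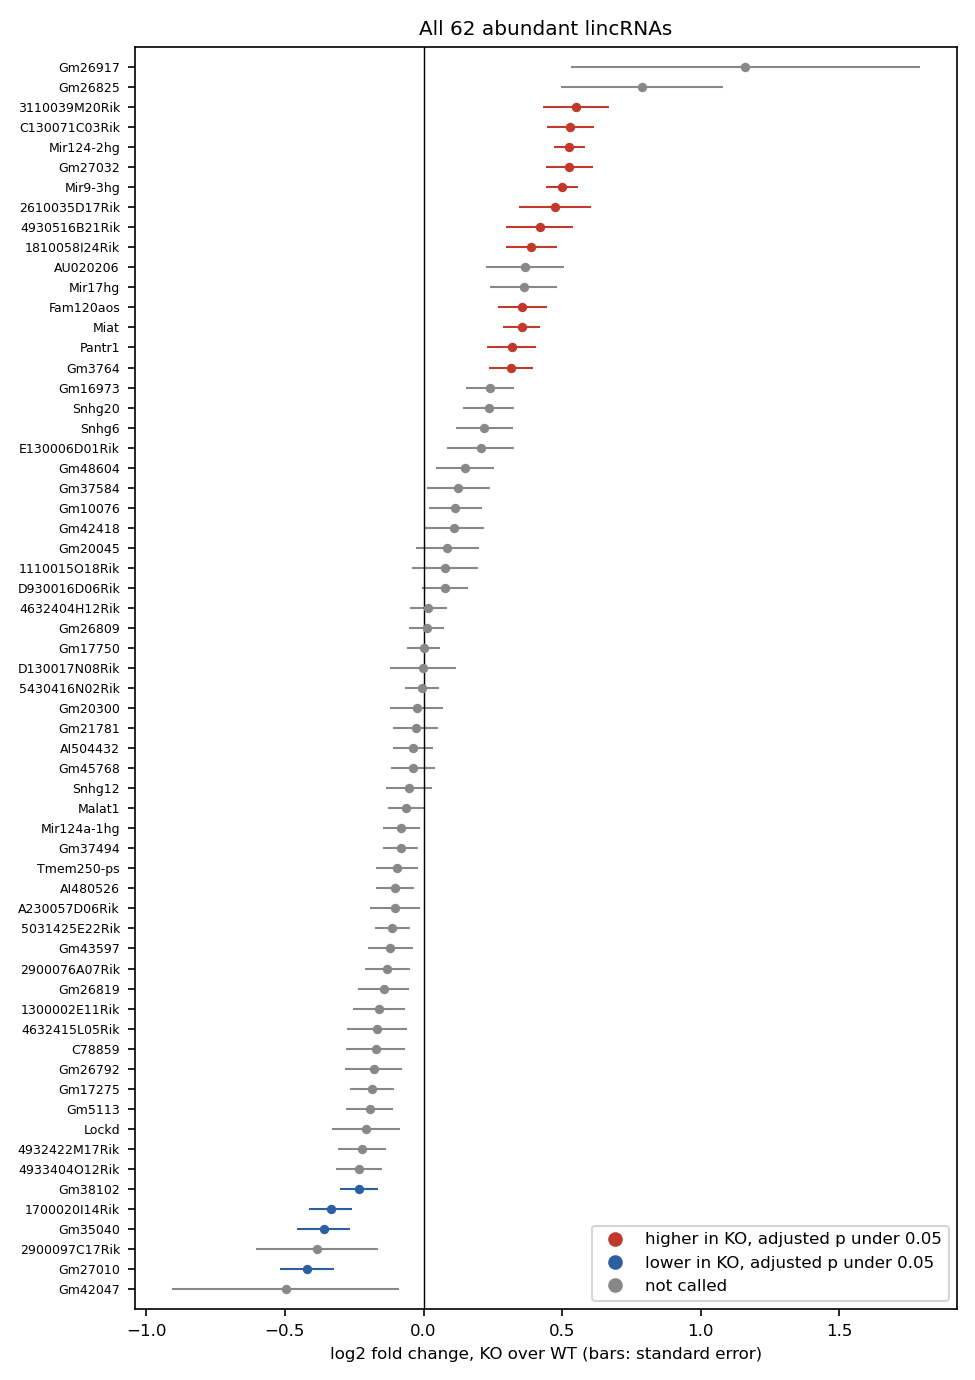
Log2 fold change of each of the 62 members (KO over WT, x axis) with its standard error, sorted by size. The 12 members called higher are red, the 4 called lower are blue, and the 46 others are grey; Gm26917 (1.16) and Gm42047 (-0.50) have the widest standard errors.

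The members held 0.574%, 0.624% and 0.629% of all counts in KO 1 to 3, against 0.548%, 0.551% and 0.550% in WT 1 to 3. Each KO library lay above each WT library (0.609 ± 0.0303% in KO and 0.549 ± 0.0014% in WT, SD, n = 3 each; exact permutation of libraries, two-sided p = 0.1, which is the least possible here). Miat alone made up 30.8% of the members' counts. Without Miat, an alternative added after the data were seen, the shares were 0.377%, 0.426% and 0.429% in KO and 0.400%, 0.384% and 0.394% in WT, and the groups overlapped (exact permutation of libraries, two-sided p = 0.4). Per kilobase of exon, the highest mean levels over the 6 libraries were those of Miat (192 CPM per kb), Gm42418 (143), Gm10076 (93.6), Mir124a-1hg (85.4), Malat1 (75.2), Gm3764 (67.4) and Gm17750 (56.8). Gm42047 (45.9), C130071C03Rik (44.9) and 4930516B21Rik (42.4 CPM per kb) followed.

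Markers of cell types moved beside these RNAs. All 7 radial glia markers (Nes, Sox2, Pax6, Hes1, Hes5, Fabp7 and Vim) rose, and their summed level was 2469 to 2966 CPM in KO and 1664 to 1775 CPM in WT, lowest of the KO libraries in KO 1. Of 7 neuron markers 3 fell (Dcx, Snap25 and Gad1) and 4 did not pass, with a sum of 4671 to 4926 CPM in KO and 5252 to 5386 CPM in WT. The cortical excitatory list (3 of 6 higher) summed to 51.9 to 87 CPM in KO and 20.6 to 44.7 CPM in WT, and the list of the diencephalon and hypothalamus (2 of 5 tested higher) to 62.9 to 152 CPM in KO and 24.4 to 66.7 CPM in WT. For the lateral and caudal eminences (3 of 6 lower, 1 higher) the sum was 373 to 421 CPM in KO and 335 to 387 CPM in WT. The marker called higher was Nr2f2 (231 CPM in KO and 118 CPM in WT). Those called lower were Ebf1 (50.6 and 107 CPM), Rarb (4.27 and 15.2 CPM) and Penk (1.04 and 2.72 CPM), KO before WT. Red blood cell markers (2 of 7 higher, 2 lower) summed to 986 to 1566 CPM in KO and 657 to 718 CPM in WT. Embryonic Hbb-y and Hba-x were 6.12-fold and 7.76-fold higher in KO, and adult Hbb-bt and Hbb-bs were 1.83-fold and 2.91-fold lower. Endothelial markers (1 of 4 lower) were at 108 to 129 CPM in KO and 143 to 146 CPM in WT, those of pericytes (3 of 3 lower) at 54.5 to 79.5 CPM in KO and 91.5 to 93.8 CPM in WT, those of microglia (2 of 4 lower) at 20.4 to 26.2 CPM in KO and 27.9 to 29.7 CPM in WT and those of oligodendrocyte precursors (1 of 4 higher, 1 lower) at 179 to 221 CPM in KO and 162 to 169 CPM in WT. The part of these cells in the lincRNA values was not tested.

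Of the nuclear RNAs, Miat rose and Malat1 did not pass. Miat (chromosome 5, 112213228 to 112229395, minus strand) is a nuclear RNA of neurons and their precursors. It had 1987, 1993 and 2014 CPM in KO 1 to 3, against 1482, 1656 and 1551 CPM in WT 1 to 3. The KO libraries lay close together and above every WT library. It was 1.28-fold higher (log2 fold change 0.35, SE 0.066, edgeR adjusted p = 0.00779), and 5 of the 6 fits that each left out 1 library kept the call. Without WT 3 the edgeR adjusted p was 0.0518. Malat1, which collects in nuclear speckles, had 531, 469 and 541 CPM in KO 1 to 3, against 539, 537 and 533 CPM in WT 1 to 3, and the groups overlapped (log2 fold change -0.062, SE 0.068, edgeR adjusted p = 0.543). Exons of other gene models overlap those of Miat, on the other strand for 2260 of its bases, and whether the counting used strand was not stated in the sources used here.

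The microRNA hosts are the 10 members that hold at least 1 annotated microRNA on their own strand. Of these, 4 rose and 6 did not pass, with a median log2 fold change of 0.27 over the 10, against -0.0041 over all members. Among autosomal genes with a total of at least 2500 counts, 12.8% were higher. Of the 4 hosts that rose, 3 hold miR-9. This set of members, like those below, is small and was chosen with earlier results known, and it was not tested against that share. The hosts of miR-9 were all higher. C130071C03Rik (chromosome 13, 83721381 to 83884194, plus strand) had 258, 334 and 309 CPM in KO 1 to 3, against 209, 205 and 209.7 CPM in WT 1 to 3 (log2 fold change 0.53, SE 0.086, edgeR adjusted p = 0.00424). Mir9-3hg (chromosome 7, 79500026 to 79534403, plus strand) had 176, 185 and 194 CPM in KO 1 to 3, against 131, 127 and 135 CPM in WT 1 to 3 (log2 fold change 0.50, SE 0.058, edgeR adjusted p = 0.000772). Gm3764 (chromosome 3, 88206813 to 88229959, plus strand) had 379.8, 458 and 464 CPM in KO 1 to 3, against 346, 351 and 349.5 CPM in WT 1 to 3 (log2 fold change 0.31, SE 0.079, edgeR adjusted p = 0.0244). Every KO library lay above every WT library in each of these hosts, and KO 1 was the lowest of the KO libraries. C130071C03Rik and Mir9-3hg kept the call in all 6 fits that left out 1 library. Gm3764 kept it only without KO 1, with adjusted p-values up to 0.101 in the other 5 fits. C130071C03Rik shares 1327 exonic bases with Gm33366 on the other strand.

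Of the hosts of miR-124, Mir124-2hg was called and Mir124a-1hg was not. Mir124-2hg, which holds Mir124a-2 (chromosome 3, 17789921 to 17808970, plus strand), had 111, 117 and 110.0 CPM in KO 1 to 3, against 79, 74.3 and 81.6 CPM in WT 1 to 3. It rose 1.44-fold with the smallest p of the members (log2 fold change 0.53, SE 0.057, edgeR adjusted p = 0.000501) and kept the call in all 6 fits that left out 1 library. Mir124a-1hg, which holds Mir124a-1 and Mir3078 (chromosome 14, 64587331 to 64593961, plus strand), had 369, 414 and 414 CPM in KO 1 to 3, against 439.8, 410.4 and 415 CPM in WT 1 to 3, with overlapping groups (log2 fold change -0.08, SE 0.067, edgeR adjusted p = 0.417). As a description, the log2 ratio of Mir124-2hg to Mir124a-1hg counts in a library was -1.73, -1.82 and -1.91 in KO 1 to 3, against -2.48, -2.47 and -2.35 in WT 1 to 3. Its difference was 0.61 (exact permutation of libraries, two-sided p = 0.1, the least possible here). That test cannot reach 0.05 with 3 libraries a group, and the pair was chosen for the ratio after its values were seen, so the hosts are not shown to differ in their response.

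Mir17hg, the precursor of the miR-17 to miR-92 cluster of growth-promoting microRNAs, had 27.9, 36.5 and 36.6 CPM in KO 1 to 3, against 29.6, 25.6 and 23.3 CPM in WT 1 to 3. KO 1 lay inside the WT range (log2 fold change 0.36, SE 0.12, edgeR adjusted p = 0.0588). Without KO 1 it was called higher (log2 fold change 0.48, edgeR adjusted p = 0.00152), and DESeq2 called it with all 6 libraries (adjusted p = 0.0231). Snhg20, which holds Mir6516 and is also a host of small nucleolar RNA, had every KO library above WT without passing the test (log2 fold change 0.24, edgeR adjusted p = 0.0948; values given with those hosts). C78859, which holds Mir138-2, had 10.2, 10.4 and 9.57 CPM in KO 1 to 3, against 9.93, 12.8 and 11.3 CPM in WT 1 to 3 (log2 fold change -0.17, SE 0.11, edgeR adjusted p = 0.272). The remaining hosts were A230057D06Rik, with microRNAs of the miR-344 family (log2 fold change -0.10, edgeR adjusted p = 0.436), and 2900076A07Rik, with Mir1839 (log2 fold change -0.13, edgeR adjusted p = 0.279). The plot of the 10 hosts by library shows the gap between KO and WT in the miR-9 hosts and Mir124-2hg, and its absence in Mir124a-1hg. Host counts cover the long precursor and not the mature microRNA, which was not measured here.

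**Figure D2:**
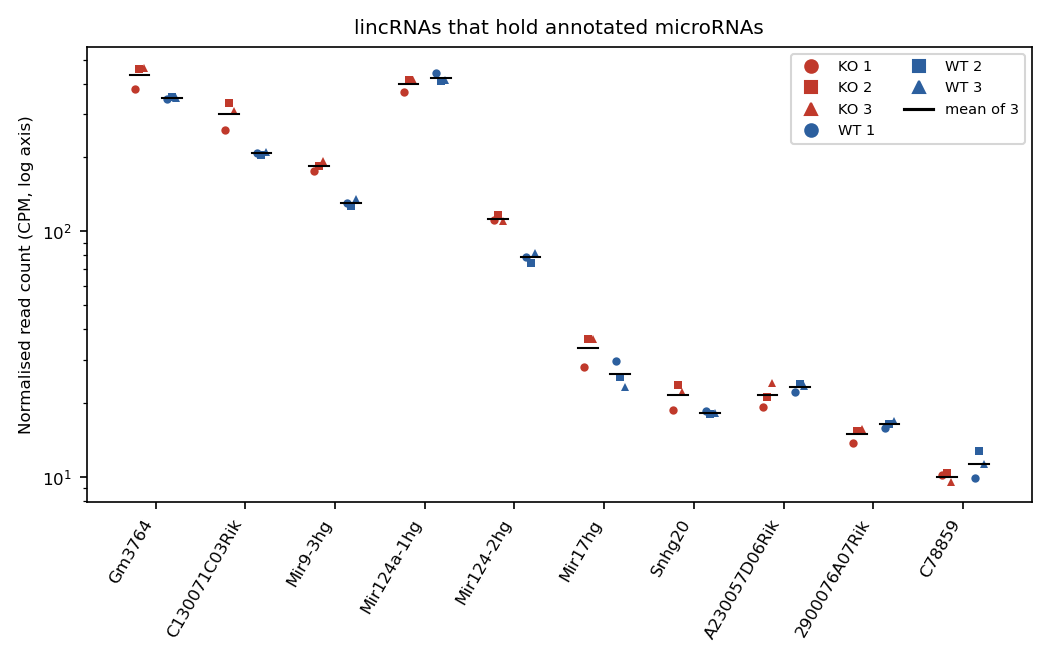
Normalised read count (CPM, log axis) of the 10 microRNA hosts in each library, KO in red left of WT in blue, with the mean of 3 as a bar. The first 3 hosts hold miR-9 and are higher in every KO library; Mir124a-1hg overlaps between groups, while Mir124-2hg has 110 to 117 CPM in KO and 74.3 to 81.6 CPM in WT.

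Just beyond the end of Mir9-3hg, on the same strand, lies another member that moved the other way. Gm35040 (chromosome 7, 79536043 to 79560033, plus strand) begins 1639 bases after Mir9-3hg ends. It had 100.2, 100.3 and 80.1 CPM in KO 1 to 3, against 131, 111 and 118 CPM in WT 1 to 3 (log2 fold change -0.36, SE 0.10, edgeR adjusted p = 0.0282). The log2 ratio of Mir9-3hg to Gm35040 counts was 0.81, 0.88 and 1.28 in KO 1 to 3, against -0.0026, 0.19 and 0.20 in WT 1 to 3. Every KO ratio lay above every WT ratio, with a difference of 0.86 (exact permutation of libraries, two-sided p = 0.1, the least possible here; pair chosen after its values were seen). Gm35040 kept its call only in the fit without KO 1, with adjusted p-values up to 0.0976 when another library was left out. On chromosome 13, Gm17750 lies 141102 bases beyond C130071C03Rik, on the other strand. It had 30.2, 30.2 and 29.8 CPM in KO 1 to 3, against 30.1, 29.2 and 30.7 CPM in WT 1 to 3 (log2 fold change 0.00025, SE 0.06, edgeR adjusted p = 0.998).

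Cyrano, the RNA with the miR-7 site, fell, and Norad was uneven among KO libraries. Cyrano (1700020I14Rik; chromosome 2, 119594297 to 119607502, plus strand) had 174, 164 and 145 CPM in KO 1 to 3, against 217, 202 and 190.2 CPM in WT 1 to 3. Each KO library was below each WT library, and the RNA was 1.26-fold lower (log2 fold change -0.33, SE 0.078, edgeR adjusted p = 0.0185). The call was lost without KO 2, KO 3, WT 1 or WT 2 (edgeR adjusted p up to 0.0675). The nearest coding gene, Oip5, which encodes a centromere protein, had 11.8 ± 0.999 CPM in KO and 11.5 ± 1.02 CPM in WT (log2 fold change 0.036, SE 0.10, edgeR adjusted p = 0.832). Norad (2900097C17Rik), which binds the RNA-binding Pumilio proteins, had 82.9, 51.5 and 45 CPM in KO 1 to 3, against 75.4, 80.7 and 77.9 CPM in WT 1 to 3. KO 1 was above every WT library and KO 2 and KO 3 were below them, and the RNA was not called (log2 fold change -0.38, SE 0.22, edgeR adjusted p = 0.252). Without KO 1 it was called lower (log2 fold change -0.69, edgeR adjusted p = 3.02e-06).

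Of 3 members whose nearest coding gene is on a list of 93 forebrain transcription factors, 2 rose (C130071C03Rik, given above, and Pantr1) and 1 did not pass. Pantr1 (chromosome 1, 42590782 to 42694842, minus strand) starts 926 bases from Pou3f3, on the other strand and pointing away. Pantr1 had 106, 129.6 and 123 CPM in KO 1 to 3, against 105, 88.9 and 93.1 CPM in WT 1 to 3, with KO 1 the nearest to WT (log2 fold change 0.32, SE 0.088, edgeR adjusted p = 0.0326). Its call was lost without KO 2, KO 3, WT 2, WT 3 (edgeR adjusted p up to 0.133). Pou3f3, a POU homeobox gene of upper-layer and other forebrain neurons, had 622 ± 17.2 CPM in KO and 625 ± 48.8 CPM in WT (log2 fold change -0.0065, SE 0.07, edgeR adjusted p = 0.957). The RNA 3110039M20Rik (chromosome 12, 49389652 to 49407360, plus strand) is a spliced clone. It had 13.5, 18.6 and 17.7 CPM in KO 1 to 3, against 11.9, 10.8 and 11.2 CPM in WT 1 to 3, the largest called rise of the members at 1.47-fold (log2 fold change 0.55, SE 0.12, edgeR adjusted p = 0.0142). The call was lost without KO 2, KO 3, WT 2, WT 3 (edgeR adjusted p up to 0.0624).

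The member 2610035D17Rik (chromosome 11, 113043895 to 113201838, minus strand) lies 256135 bases from Sox9, a gene of radial glia, on the other strand. It had 12.2, 11.3 and 12.7 CPM in KO 1 to 3, against 10.5, 7.74 and 7.77 CPM in WT 1 to 3, all KO libraries being above WT (log2 fold change 0.47, SE 0.13, edgeR adjusted p = 0.0308). Removing the trend on exonic length gave an adjusted p of 0.0602, and the call was also lost without KO 2, KO 3, WT 2, WT 3 (edgeR adjusted p up to 0.121). Sox9 rose, with 124 ± 6.14 CPM in KO and 80.3 ± 1.68 CPM in WT (log2 fold change 0.63, SE 0.056, edgeR adjusted p = 0.00021). For C130071C03Rik the nearest coding gene is Mef2c, 54301 bases away on the same strand, which had 29.9 ± 3.69 CPM in KO and 35.6 ± 2.11 CPM in WT (log2 fold change -0.25, SE 0.093, edgeR adjusted p = 0.0843). Also beside a listed factor, 1110015O18Rik has Zfhx4 as its nearest coding gene, 403615 bases away. It had 13.6, 11.7 and 9.84 CPM in KO 1 to 3, against 11, 10.9 and 11.3 CPM in WT 1 to 3, with overlapping groups (log2 fold change 0.078, SE 0.12, edgeR adjusted p = 0.67). Sox9 was picked after its values were seen.

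Promoter sequence of the called lincRNAs is shown for 4 members, namely the 3 with the largest called rise and the 1 with a called fall among members typed lncRNA for which a window was found in the RefSeq promoter table used here. Each window runs from 250 bases before to 50 after the start (GRCm38.p6). The motifs, 3 in number, were searched on both strands and are in capitals: TGGGAA with its complement TTCCCA (the core of sites of the Notch effector RBPJ), the palindrome CAGCTG (an E-box of proneural factors), and TATAAA with its complement TTTATA (a box of the core promoter). Of 32544 windows in the table, 25.4% held the first, 16.4% the second and 13.6% the third, and as each window shown holds 1 match, none overlaps another.
3110039M20Rik (chr12:49389402-49389701, plus strand): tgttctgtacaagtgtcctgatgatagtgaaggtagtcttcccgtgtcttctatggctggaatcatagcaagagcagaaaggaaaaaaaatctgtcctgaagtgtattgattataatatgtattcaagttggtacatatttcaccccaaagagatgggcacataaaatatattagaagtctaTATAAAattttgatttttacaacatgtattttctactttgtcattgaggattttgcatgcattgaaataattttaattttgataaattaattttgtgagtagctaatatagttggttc
C130071C03Rik (chr13:83721131-83721430, plus strand): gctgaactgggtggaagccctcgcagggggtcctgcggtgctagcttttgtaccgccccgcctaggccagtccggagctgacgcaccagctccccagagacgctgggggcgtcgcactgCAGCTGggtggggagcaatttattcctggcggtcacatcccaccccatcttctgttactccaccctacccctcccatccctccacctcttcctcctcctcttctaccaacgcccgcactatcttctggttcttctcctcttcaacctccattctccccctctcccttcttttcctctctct
Mir9-3hg (chr7:79499776-79500075, plus strand): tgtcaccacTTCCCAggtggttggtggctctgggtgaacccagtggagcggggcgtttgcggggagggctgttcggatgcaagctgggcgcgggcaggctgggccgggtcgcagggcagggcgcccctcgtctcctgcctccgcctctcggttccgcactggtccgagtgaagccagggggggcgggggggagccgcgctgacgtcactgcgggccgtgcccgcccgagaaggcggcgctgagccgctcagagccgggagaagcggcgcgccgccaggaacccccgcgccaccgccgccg
1700020I14Rik (chr2:119594046-119594345, plus strand): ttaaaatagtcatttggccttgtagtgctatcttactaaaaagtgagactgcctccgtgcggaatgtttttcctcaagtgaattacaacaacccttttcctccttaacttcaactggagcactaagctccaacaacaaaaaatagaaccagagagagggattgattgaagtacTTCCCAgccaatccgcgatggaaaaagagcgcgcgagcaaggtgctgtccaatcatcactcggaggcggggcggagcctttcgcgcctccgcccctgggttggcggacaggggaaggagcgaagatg
The windows of the 2 miR-9 hosts differ in composition, as that of Mir9-3hg has 75% G or C and 35 CG pairs and that of C130071C03Rik 60.7% and 12. The window of 3110039M20Rik has 30.7% and 1 CG pair, and that of 1700020I14Rik 50% and 15, against medians of 53% and 7 over the table. The TGGGAA motif occurs once each in the windows of Mir9-3hg and 1700020I14Rik, which moved in opposite directions.

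Small nucleolar RNAs guide chemical changes of ribosomal RNA, and their precursors are often lincRNAs of the Snhg type. All 4 such hosts missed the edgeR threshold, with a median log2 fold change of 0.084. Snhg20 had 18.8, 23.6 and 22.1 CPM in KO 1 to 3, against 18.6, 18 and 18.1 CPM in WT 1 to 3, with every KO library just above WT (log2 fold change 0.24, SE 0.091, edgeR adjusted p = 0.0948). Snhg6 had 15.7, 19.7 and 18 CPM in KO 1 to 3, against 16.3, 13.7 and 15.7 CPM in WT 1 to 3 (log2 fold change 0.22, SE 0.10, edgeR adjusted p = 0.155). Snhg12 had 14.2, 16 and 15.6 CPM in KO 1 to 3, against 16.8, 15.7 and 15 CPM in WT 1 to 3 (log2 fold change -0.053, SE 0.084, edgeR adjusted p = 0.687). The fourth was 2900076A07Rik, given above, whose only annotated small nucleolar RNA carries the same name, Mir1839, as its microRNA. Without KO 1, Snhg20 (log2 fold change 0.33, edgeR adjusted p = 0.00228) and Snhg6 (log2 fold change 0.30, edgeR adjusted p = 0.016) were called higher.

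Members placed head to head with a coding gene, with starts within 2 kb on opposite strands, numbered 8, of which 3 rose (Pantr1, 4930516B21Rik and Fam120aos), 1 fell (Gm38102) and 4 did not pass. Fam120aos had 12.1, 13.3 and 14 CPM in KO 1 to 3, against 10.2, 10.01 and 10.6 CPM in WT 1 to 3 (log2 fold change 0.36, SE 0.089, edgeR adjusted p = 0.0232), a call lost without KO 2, KO 3, WT 1, WT 2, WT 3 (edgeR adjusted p up to 0.0958). Its partner Fam120a, 270 bases away, was lower, with 152 ± 4.50 CPM in KO and 175 ± 7.71 CPM in WT (log2 fold change -0.20, SE 0.056, edgeR adjusted p = 0.0331). The RNA 4930516B21Rik had 45.1, 65.2 and 63.5 CPM in KO 1 to 3, against 42.5, 43.2 and 44.2 CPM in WT 1 to 3, where KO 1 was near WT and KO 2 and KO 3 were well above it (log2 fold change 0.42, SE 0.12, edgeR adjusted p = 0.0411). It lost the call under 9 of 17 alternatives, among them limma voom, no filter on low counts and the removal of the trend on exonic length, and was kept without KO 1 alone among fits on 5 libraries (edgeR adjusted p up to 0.138 in the others). Exog, whose start is 113 bases away, did not pass, with 49.8 ± 4.41 CPM in KO and 55.7 ± 1.35 CPM in WT (log2 fold change -0.16, SE 0.07, edgeR adjusted p = 0.129). RefSeq lists 4930516B21Rik as an older name of Acvr2b, which GENCODE M21 places 5283 bases away on the other strand.

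Gm38102 had 22.5, 22.1 and 21.1 CPM in KO 1 to 3, against 25.2, 27.2 and 24.8 CPM in WT 1 to 3 (log2 fold change -0.23, SE 0.07, edgeR adjusted p = 0.0433), and it kept its call only in the fit without KO 1 among those that left out 1 library (up to 0.18 in the others). It shares 1525 exonic bases on the other strand with AI480526, a member that had 56.2, 65.4 and 64.7 CPM in KO 1 to 3, against 68, 68.2 and 63.9 CPM in WT 1 to 3 (log2 fold change -0.10, SE 0.069, edgeR adjusted p = 0.309). The reads of the pair cannot be told apart without strand. The head-to-head partner of Gm38102 is Rhof, 1247 bases away, which did not pass. Rhof had 4.17 ± 0.633 CPM in KO and 5.18 ± 0.286 CPM in WT (log2 fold change -0.31, SE 0.14, edgeR adjusted p = 0.131). The coding gene Setd1b, 527 bases from AI480526 and on the same strand as Gm38102, was lower, with 127 ± 15 CPM in KO and 165 ± 3.10 CPM in WT (log2 fold change -0.38, SE 0.079, edgeR adjusted p = 0.0127). The member 4932422M17Rik, at the same place, had 27.6, 27.1 and 22.9 CPM in KO 1 to 3, against 31.1, 31 and 28.3 CPM in WT 1 to 3, all KO libraries being below WT (log2 fold change -0.22, SE 0.085, edgeR adjusted p = 0.0927).

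Of 10 members that begin within 5 kb downstream of a coding gene on the same strand, 1 rose (3110039M20Rik) and 9 did not pass. Lockd, known for a promoter that acts on Cdkn1b in mouse red cell precursors, lies 3579 bases beyond that gene. It had 14.8, 20.4 and 19.9 CPM in KO 1 to 3, against 21.2, 19.5 and 22.8 CPM in WT 1 to 3, and the groups overlapped (log2 fold change -0.21, SE 0.12, edgeR adjusted p = 0.246). Cdkn1b, which encodes a cell cycle inhibitor, was lower, with 188 ± 5.43 CPM in KO and 226 ± 10.8 CPM in WT (log2 fold change -0.26, SE 0.057, edgeR adjusted p = 0.0141). AI504432, beyond the potassium channel gene Kcna3, had 34.1 ± 1.79 CPM in KO and 34.9 ± 2.36 CPM in WT (log2 fold change -0.037, SE 0.072, edgeR adjusted p = 0.75).

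Among the remaining clones, Gm27032 (chromosome 2, 180894105 to 180895220, plus strand) had 26.6, 27.1 and 29.8 CPM in KO 1 to 3, against 19.7, 17.5 and 20.8 CPM in WT 1 to 3. It was 1.44-fold higher (log2 fold change 0.53, SE 0.084, edgeR adjusted p = 0.00405) and kept its call under all 17 alternatives. Ythdf1, the nearest coding gene at 9157 bases, had 88 ± 3.36 CPM in KO and 86.1 ± 3.84 CPM in WT (log2 fold change 0.031, SE 0.057, edgeR adjusted p = 0.732). The transcript 1810058I24Rik, which RefSeq types as protein-coding with the older name Stmp1, a small mitochondrial membrane protein, had 28.9, 32.4 and 35.9 CPM in KO 1 to 3, against 25.7, 26 and 22.7 CPM in WT 1 to 3 (log2 fold change 0.39, SE 0.092, edgeR adjusted p = 0.0198), and its call was lost without KO 2, KO 3, WT 2, WT 3 (edgeR adjusted p up to 0.0866). Gm27010 (chromosome 14, 61625926 to 61627337, minus strand) was the most lowered called member, with 10.5, 13 and 12.6 CPM in KO 1 to 3, against 17.1, 15.8 and 15.4 CPM in WT 1 to 3. It was 1.34-fold lower (log2 fold change -0.42, SE 0.10, edgeR adjusted p = 0.0191), and its call was lost without WT 1, WT 2 or WT 3 (edgeR adjusted p up to 0.0668). Its nearest coding gene, Kcnrg, had 2.63 ± 0.301 CPM in KO and 3.35 ± 0.331 CPM in WT (log2 fold change -0.35, SE 0.14, edgeR adjusted p = 0.115). Of the members at the minimum total, Gm37584 had 8.82, 11 and 11.3 CPM in KO 1 to 3, against 9.52, 9.08 and 9.99 CPM in WT 1 to 3 (log2 fold change 0.13, SE 0.11, edgeR adjusted p = 0.456) and Gm26819 had 9.28, 10.1 and 9.24 CPM in KO 1 to 3, against 10.8, 9.80 and 10.9 CPM in WT 1 to 3 (log2 fold change -0.14, SE 0.092, edgeR adjusted p = 0.289), both with overlapping groups. AU020206 had 8.85, 11.9 and 13.2 CPM in KO 1 to 3, against 8.93, 8.33 and 9.13 CPM in WT 1 to 3, with KO 1 inside the WT range (log2 fold change 0.36, SE 0.14, edgeR adjusted p = 0.0929). Tmem250-ps had 23.2 ± 1.57 CPM in KO and 24.8 ± 1.02 CPM in WT and did not pass (log2 fold change -0.10, SE 0.075, edgeR adjusted p = 0.383).

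**Figure D3:**
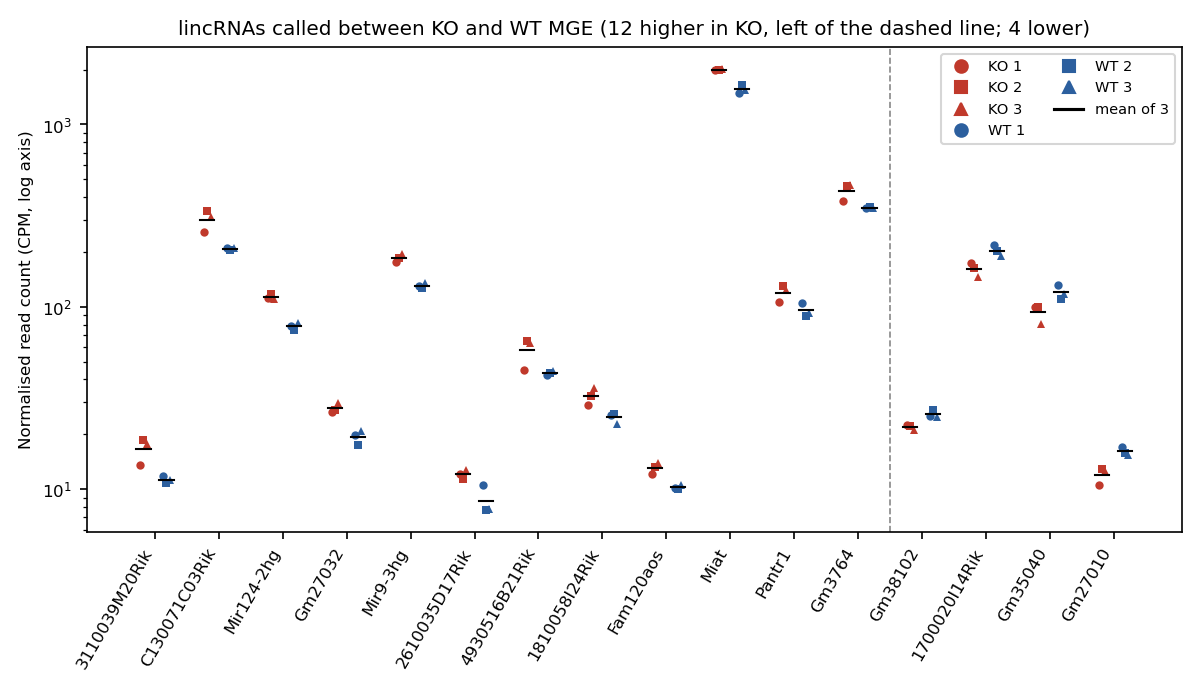
Normalised read count (CPM, log axis) in each library of the 16 called members, KO in red left of WT in blue, with the mean of 3 as a bar. KO and WT libraries do not overlap in any of the 16; KO 1 is the KO library nearest to the WT mean in 12 of them.

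The largest positive and the most negative log2 fold changes belonged to members that did not pass the test, and in these members the KO libraries lay far apart. Gm26917 had 74, 98 and 293 CPM in KO 1 to 3, against 75.8, 74.9 and 57.7 CPM in WT 1 to 3, and KO 3 was far above the other 5 libraries (log2 fold change 1.16, SE 0.63, edgeR adjusted p = 0.264). Gm42418, 616 bases from it on the same strand, had 277, 307 and 235 CPM in KO 1 to 3, against 256, 223 and 278 CPM in WT 1 to 3 and overlapped between groups (log2 fold change 0.11, SE 0.11, edgeR adjusted p = 0.475). RefSeq lists Gm42418 as the ribosomal RNA pseudogene Rn18s-rs5, so counting could split reads of ribosomal RNA copies among such models, and their values are uncertain. Gm26825 had 21.3, 45.8 and 46.9 CPM in KO 1 to 3, against 21.9, 22.6 and 21.6 CPM in WT 1 to 3, with KO 1 at the WT level and KO 2 and KO 3 well above it (log2 fold change 0.79, SE 0.29, edgeR adjusted p = 0.108). Without KO 1 it was called higher (log2 fold change 1.08, edgeR adjusted p = 7.86e-08). It shares 1860 exonic bases with the pseudogene model Gm15459 on the other strand. Gm42047 had 107, 304 and 234 CPM in KO 1 to 3, against 329, 254 and 327 CPM in WT 1 to 3, with KO 1 far below the other 5 libraries (log2 fold change -0.50, SE 0.41, edgeR adjusted p = 0.442; without KO 1 log2 fold change -0.17, edgeR adjusted p = 0.553). Gm10076, a single-exon model of 384 bases that RefSeq types as a pseudogene, had 37.3 ± 5.17 CPM in KO and 34.5 ± 1.67 CPM in WT (log2 fold change 0.11, SE 0.10, edgeR adjusted p = 0.419).

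The plot of the 16 called members by library shows KO 1 closer to WT than KO 2 and KO 3 in many of them. KO 1 was the KO library nearest to the WT mean in 12 of the 16 called members and in 34 of all 62. The counts of calls changed with the libraries used, to 20 higher and 10 lower without KO 1, and those over all tested genes moved alike, with 20.2% called in all 6 libraries and 41.5% without KO 1. The members called were 5 higher and 1 lower without KO 2 (7.29% of all tested genes), 5 and 1 without KO 3 (7.62%), 9 and 0 without WT 1 (10.8%), 5 and 0 without WT 2 (6.49%) and 4 and 1 without WT 3 (6.4%). These shifts were not tested for a difference between members and other genes. At an unadjusted p under 0.05, edgeR placed 6 members lower without WT 1 and 5 without WT 2. Of the 14 members called without KO 1 and not with it, Gm26825, AU020206, Mir17hg, Snhg20, Gm16973, Snhg6, E130006D01Rik and D930016D06Rik were higher. The other 6 were lower, with Norad at the head. All 16 members called with 6 libraries were called without KO 1. In the plot of both sets of log2 fold changes most called members lie farther from 0 without KO 1 than with it.

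**Figure D4:**
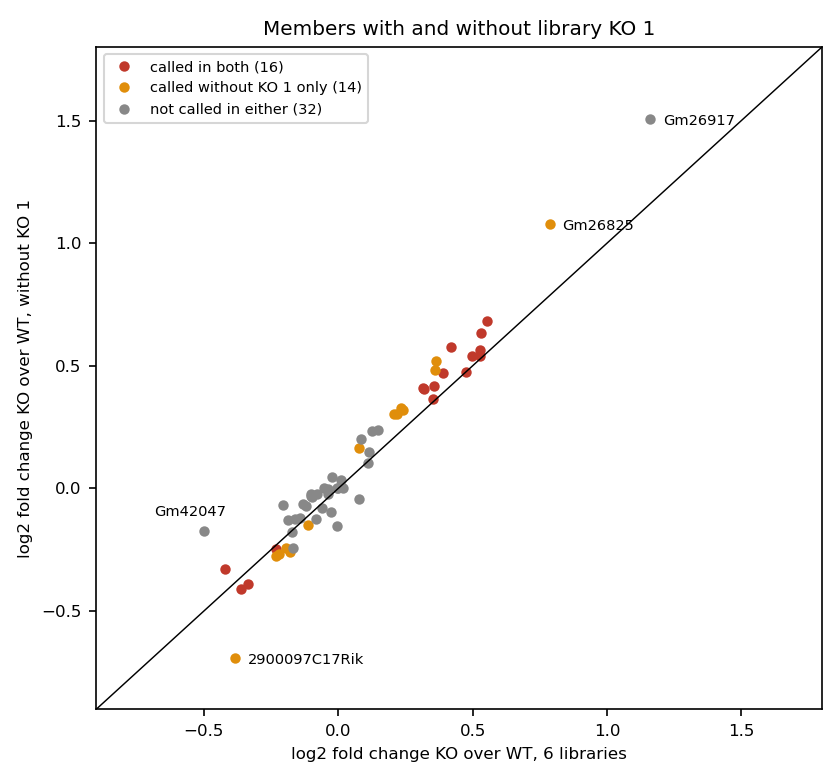
Log2 fold change (KO over WT) of the 62 members with all 6 libraries (x axis) and without library KO 1 (y axis); the line marks equal values. Members called in both fits are red (16), those called without KO 1 only are orange (14) and the others are grey (32); Gm26825 and 2900097C17Rik (Norad) move farther from 0 without KO 1, while Gm42047 moves towards 0.

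The coding gene nearest to each member was read beside it. The median distance between gene bodies was 3660.5 bases, and 10 pairs overlapped. For 55 members that gene was tested, and 54 of these genes were distinct. Of the 55, 3 were higher and 10 lower, while 20.2% of all tested genes were called. A tested neighbour was at hand for 13 of the 16 called members, and 11 of these neighbours were not called. In 2 pairs the neighbour was called the other way than the member, namely Fam120a beside Fam120aos and Polg, which encodes the mitochondrial DNA polymerase, beside Mir9-3hg. Polg had 67 ± 2.02 CPM in KO and 75.8 ± 3.05 CPM in WT (log2 fold change -0.18, SE 0.055, edgeR adjusted p = 0.0481). Across the 55 pairs Pearson's r of the 2 log2 fold changes was 0.15 and Spearman's rho was 0.047, over pairs of genes that share the same 6 libraries. By the nearest-gene rule Sox9, named above, is not the neighbour of its RNA.

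The 46 members that were not called ranged from a log2 fold change of -0.50 to 1.16, and 33 of them lay within 0.2 of 0. In 7 the groups did not overlap, such as 4933404O12Rik, which had 13.5, 12.4 and 12.2 CPM in KO 1 to 3, against 15.8, 14.5 and 14.5 CPM in WT 1 to 3 (log2 fold change -0.23, SE 0.084, edgeR adjusted p = 0.0765). At the other end, 5430416N02Rik had 26.8, 27.2 and 26.6 CPM in KO 1 to 3, against 27, 27 and 26.9 CPM in WT 1 to 3 (log2 fold change -0.0051, SE 0.06, edgeR adjusted p = 0.961). Its means were 26.87 CPM in KO and 26.96 CPM in WT. They differed by less than the SD in KO (0.294 CPM) but by more than that in WT (0.0478 CPM). Exonic length ran from 384 to 16543 bases with a median of 3803.5, and 17 members had a single exon. For 39 members no exon was shared with another gene, of which 9 were higher and 3 lower. RefSeq matched 43 members, by a current or an older symbol, and typed 35 of them as lncRNA, 5 as protein-coding and 3 as a form of pseudogene. Among the protein-coding types, that of 4930516B21Rik is the type of Acvr2b, which was matched by an older symbol.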

How the data were processed

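The input of each test was the table of raw read counts per gene that the authors deposited. Steps named in the submitters' processing notes are Trimmomatic 0.36, STAR 2.5.2b on GRCm38, featureCounts (Subread 1.5.2) and DESeq2. Annotation release and strand (not given in the sources used here) limit the values of overlapping genes. The deposited normalised table was left out, as 2 of its columns carry 1 name. Gene types and positions came from GENCODE M21 (GRCm38), which holds 49056 of the 49315 gene IDs and lacks 259. The filter was filterByExpr (minimum count 10, minimum total 15), and 18079 genes entered edgeR 4.0.16 (R 4.3.3; quasi-likelihood test with robust spread) with TMM factors and no pairing. P-values were adjusted over all tested genes by Benjamini-Hochberg, with calls at 0.05. The biological coefficient of variation was 9.52%. A standard error is the log2 fold change divided by the square root of F. The labels describe separate pools, so p-values measure the spread between pools. The procedure was first tested on simulated data.

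Named with library values or group means were members without a clone name, called clones, the 10 members of highest level per kilobase and those just inside the minimum total, with the closest coding genes of some (those just outside the minimum by total only); other members named for a count of 5 or fewer, or for their place or lack of change, were chosen after their values were seen. Members, lists and groups were chosen with earlier results of these data known. Alternatives were other scalings and filters, DESeq2 1.42.0, limma 3.58.1 (voom), a spread without robust weights, a replicate block, correction for a length trend in each library, each library left out, other thresholds and other subsets of members. PCR copies were not removed by molecular identifiers.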

Additional observations from a re-analysis of the deposited data

How the results depend on the processing

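Over 17 alternatives and 62 members, 974 of 1054 pairs gave the same call and direction, 61 lost a call, 19 gained one and 0 called values reversed. Of the 16 called members, 4 (C130071C03Rik, Gm27032, Mir124-2hg and Mir9-3hg) were called under every alternative, and 9 under all 11 fits on 6 libraries. The count of 12 higher and 4 lower members was 12 and 4 under the RLE, upper quartile, total count and protein-coding scalings. Under each of these scalings the median log2 fold change over all tested genes lay within 0.014 of 0. With DESeq2 it was 13 and 4, with limma voom 11 and 4 and with the length trend removed 10 and 6. Fits that each left out 1 library called 4 to 20 members higher and 0 to 10 lower, while 6.4% (without WT 3) to 41.5% (without KO 1) of all tested genes were called; the cause was not tested. At an adjusted p under 0.01 edgeR called 5 higher and 0 lower members (8 lower at an unadjusted p under 0.05), by construction. With the replicate number as a block 7 were higher and 2 lower, on fewer residual degrees of freedom. Deviations of same-numbered KO and WT libraries correlated at -0.076, -0.12 and 0.026 over genes, so the numbers gave no sign of pairing; KO 1 correlated best with WT 2, KO 2 with WT 1 and KO 3 with WT 2. The KO minus WT difference in the members' share of counts was 0.0599 percentage points and 0.0179 without Miat, which was chosen after seeing the data; other alternatives gave 0.05 to 0.0773.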
